A study of Mus musculus with 151 samples.

Results

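The genes followed here belong to the maternal mRNA programme of the oocyte: Zar1, Ybx2, Lsm14b, Cpeb1, Dazl, Btg4, Cnot6l, Cnot7, Pabpn1l and Eif4e1b. They were picked by name, with earlier results of these data known. All 10 were found among the 35976 gene rows of each of 7 count tables of RNA-seq. Female offspring of CF-1 mothers and B6/SJL fathers were compared by conception. Natural offspring came from mating in the natural cycle with development wholly in vivo. IVF offspring came from superovulated CF-1 females, with fertilization and culture to the blastocyst in vitro and transfer to pseudopregnant CF-1 recipients. Adults of both groups were delivered by cesarean section and reared by CF-1 foster dams.

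The tables held primordial germ cells (PGCs) at E13.5 from 4 Natural and 5 IVF libraries, whole ovaries at E18.5 (4 and 6), 12 weeks (4 and 5) and 39 weeks (5 and 5), single ovulated oocytes at 12 weeks (36 and 40) and 39 weeks (9 and 10), and cumulus cells at 12 weeks (5 and 5). Oocytes and cumulus cells of both groups were taken after superovulation of the offspring themselves. The labels and one passage of the methods put all fetal ovaries at E18.5, while another passage sets cesarean section of IVF pregnancies a day later, so gestational day and conception may not be separable there. One 39-week Natural ovary carries 40 weeks in its tissue label. The library names of the 12-week oocytes fall into 5 Natural and 5 IVF sets, taken here as donor sets, and counts were summed per set before testing. Each set shares the first field of its names with at least another set of its group, and with no set of the other group. What that field stands for is not stated, so the sets of a group may not be independent. No label ties a 39-week oocyte to a donor, so each 39-week oocyte group counted as 1 sample and was not tested.

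A growing oocyte makes far more mRNA than it translates. Transcripts are kept dormant with short poly(A) tails, are translated in waves as meiosis resumes while transcription is silent, and are then deadenylated and cleared as the egg passes control to the embryo. ZAR1 (gene on chromosome 5, bases 72576806 to 72581254 in GRCm38) and the Y-box protein YBX2, also called MSY2 (chromosome 11, 69935796 to 69941605), bind and stabilize stored maternal mRNA, and LSM14B (chromosome 2, 180024987 to 180035465) is an RNA-granule protein of the oocyte. CPEB1 (chromosome 7, 81347026 to 81455465) binds cytoplasmic polyadenylation elements (CPEs) and holds or releases translation. DAZL (chromosome 17, 50279395 to 50293636) is a germ cell RNA-binding protein that promotes translation during maturation, and EIF4E1B (chromosome 13, 54783998 to 54788459) is an oocyte form of the cap-binding factor. BTG4 (chromosome 9, 51060901 to 51119875) brings the CCR4-NOT deadenylase to maternal mRNA, CNOT6L (chromosome 5, 96070333 to 96164171) and CNOT7 (chromosome 8, 40492540 to 40515847) are catalytic subunits of that complex, and PABPN1L (chromosome 8, 122619471 to 122622739) is an oocyte poly(A)-binding adaptor that works with BTG4.

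Sequences at or near the 3' ends of these mRNAs are shown because the low-input libraries were reverse-transcribed from polyadenylated RNA, so the amount of a transcript and the share of it with a poly(A) tail cannot be told apart in the oocytes. The lines give 30 transcribed bases, 5' to 3', at or close to the 3' end (for Btg4 and Ybx2 the windows around the CPE-type motif, 49 and 44 bases before the end), from the longest basic protein-coding transcript of GENCODE vM21 (GRCm38). Capitals mark the polyadenylation hexamer (AATAAA or ATTAAA) or the CPE-type motif TTTTAT.
Zar1, chr5:72577114-72577143, minus strand: aagcctgtgAATAAAaggtattgcaaacaa
Pabpn1l, chr8:122619471-122619500, minus strand: aatgtaaattATTAAActtgaatatatttt
Cnot7, chr8:40493036-40493065, minus strand: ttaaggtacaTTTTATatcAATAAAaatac
Btg4, chr9:51119797-51119826, plus strand: agataaatccctTTTTATgtctttttaaaa
Ybx2, chr11:69941532-69941561, plus strand: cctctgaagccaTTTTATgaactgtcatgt
On the transcribed strand, TTTTAT or TTTTAAT occurred in the last 100 bases of 3 of the 10 transcripts (Ybx2, Btg4 and Cnot7) and of 16.5% of 21795 genes. A hexamer, which TTTTAAT can overlap, stood in the last 40 bases of 8 of 10 and of 69.2% of those genes. These matches describe the letters of the annotated ends and were not tested as sites.

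Levels are given in CPM, the count of a gene scaled to the library total. Totals ranged from 839781 to 43363799 counts per library. Values given for a test carry TMM scaling, while single oocytes, all 39-week oocytes and the medians per kilobase are in plain CPM. A gene was called when its edgeR quasi-likelihood p, adjusted by Benjamini-Hochberg over all genes tested in that table, was below 0.05. Fold changes are log2 of IVF over Natural, so a negative value is lower in IVF. Donor independence within groups is not stated for every table, and p-values measure the spread between these samples only.

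The members were mostly oocyte mRNAs, but not all alike. In ovulated oocytes per kilobase of merged exons, Btg4 had the highest median level of the 10 at 12 weeks (2601 CPM per kb in Natural and 2870 in IVF), followed by Pabpn1l (905 and 738) and Zar1 (720 and 453). At 39 weeks the first place went to Pabpn1l (4162 and 4218 CPM per kb), with Btg4 second (2559 and 2518). Ybx2 was last in both oocyte tables, with a median of 1.77 and 1.71 CPM per kb at 12 weeks. It was instead the highest member per kilobase in E18.5 ovaries (141 and 146 CPM per kb), and Dazl was the highest in PGCs (493.4 and 801.3). In adult ovaries Lsm14b came first, at 44.2 and 40.8 CPM per kb at 12 weeks and 29.7 and 37.6 at 39 weeks, and Dazl last. In PGCs, Zar1, Eif4e1b and Pabpn1l had 0 counts in all 9 libraries. Germ cell markers summed to 1210 to 2539 CPM there and granulosa markers to 10.7 to 31.5. The CPM of the members in these tables are shown in the plot of the 7 tables.

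**Figure D1:**
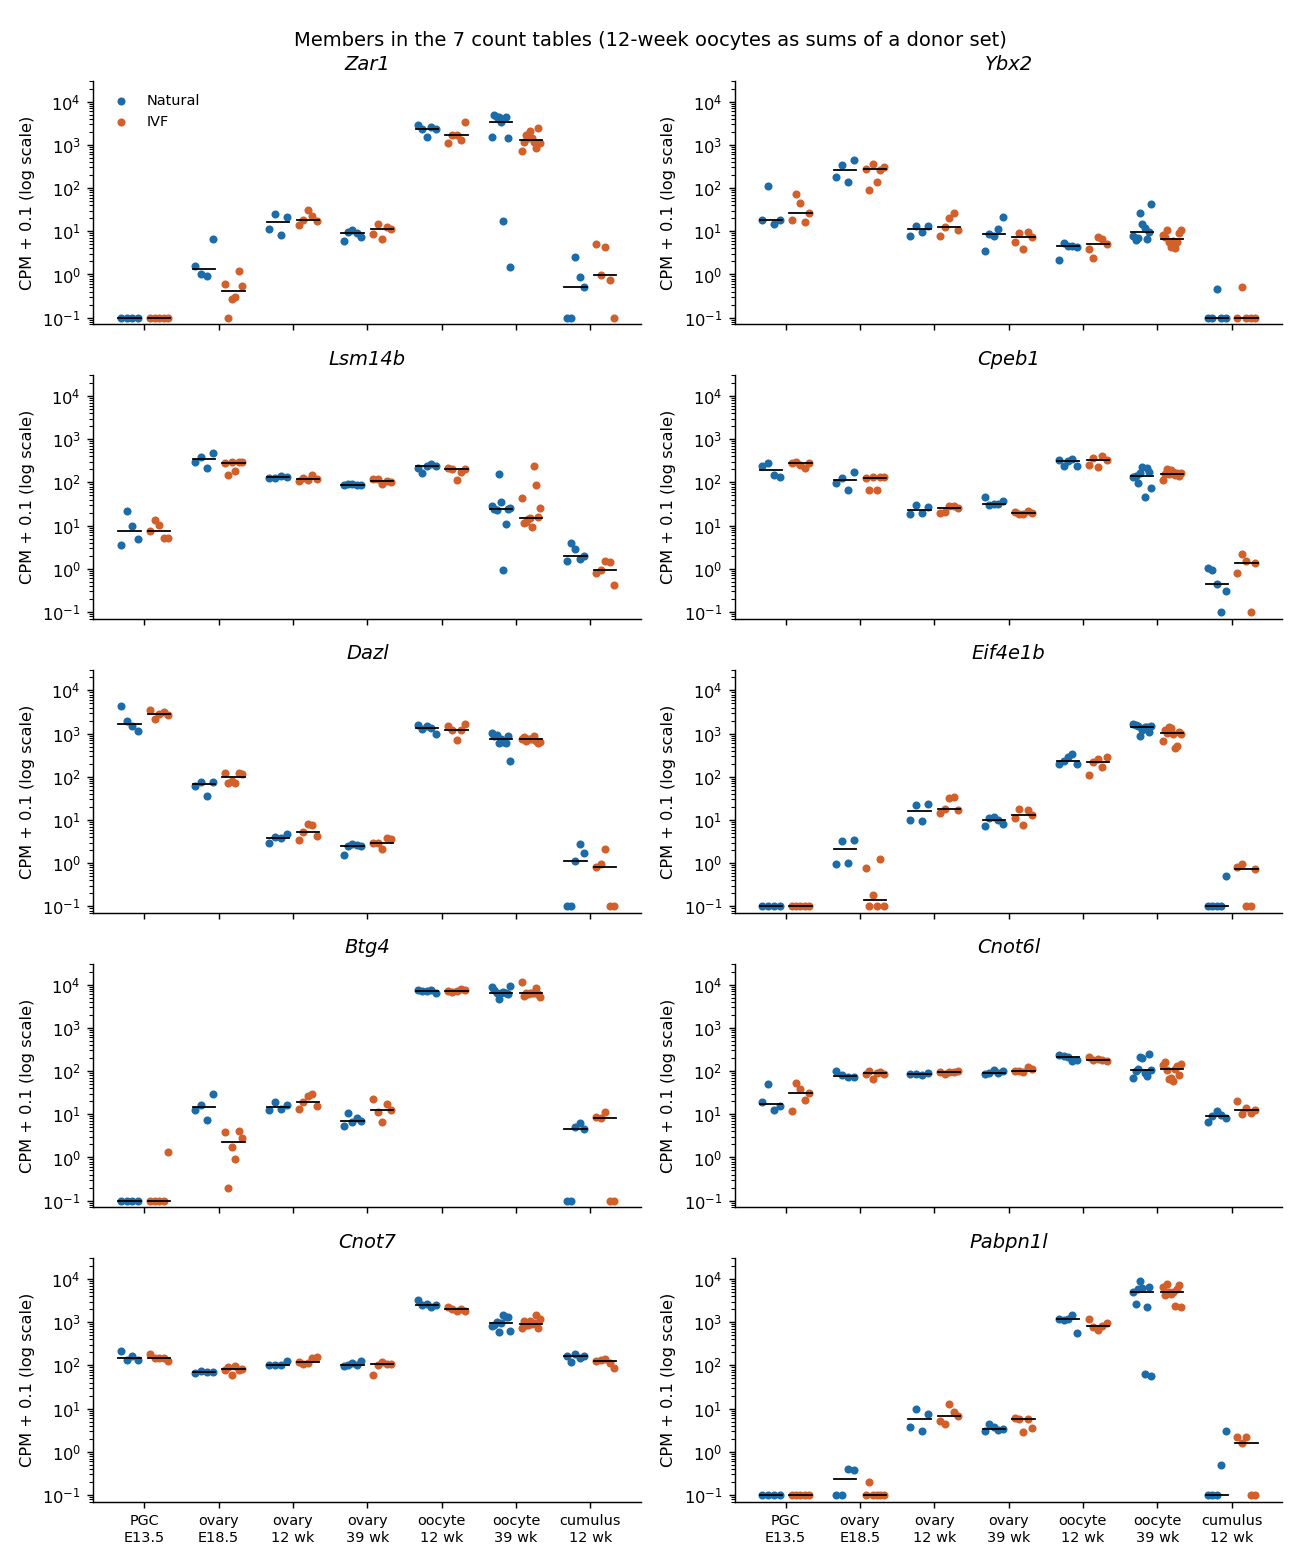
CPM + 0.1 on a log axis for each member in the 7 count tables (points: libraries, single oocytes at 39 weeks or donor sets at 12 weeks; bars: group medians; blue Natural, orange IVF). Zar1, Eif4e1b and Pabpn1l lie at 0 in all 9 PGC libraries and reach their highest levels in oocytes, while Ybx2 peaks in E18.5 ovaries.

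Across the 14 group means of log2(CPM + 1), the profile of Zar1 followed those of Btg4 (r = 0.99), Pabpn1l (0.98) and Eif4e1b (0.98), and that of Cpeb1 followed Dazl (0.88). Ybx2 ran against Zar1 (r = -0.26). The genes whose profiles had the highest median r to the 10 members, among 20538 genes, were Fam188a, Ccdc47, Dnajb4, Siah2 and Rrm2b, each at 0.86. These correlations describe 14 means in 7 tables that were sequenced and scaled apart, and the points share tissue and library type.

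Of the 95 oocytes, 12 stood apart from the rest and have to be named before the oocyte results. Gdf9, an oocyte growth factor gene used here as a fixed marker and not a member, was at 109 to 629 CPM in 10 of the 76 oocytes at 12 weeks and at 11063 to 25813 CPM in the other 66. At 39 weeks it was at 439 and 946 CPM in 2 oocytes, both Natural, and at 12423 to 28972 CPM in the other 17. Of the 12-week oocytes with low Gdf9, 4 were Natural (2 in set 2, 1 in set 4 and 1 in set 5) and 6 were IVF (4 in set 3 and 2 in set 4). Their totals were 839781 to 4991194 counts, against 2591803 to 10879166 in the others. The summed level of the 11 oocyte markers, Gdf9 among them, was 1887 to 8330 CPM against 17084 to 37390. Single markers differed in direction. In IVF oocytes of low Gdf9, Zp3 was at 8.94 to 32.2 CPM (52.8 to 236 in the others) and Ooep at 60.0 to 241 (352 to 2489). Bmp15 was at 3849 to 6678 CPM there (2947 to 5555 in the others) and Zp2 at 118 to 243 (47.7 to 188). The limit of 1000 CPM that sets them off was chosen after the data were seen, and the fold changes and ratios of the members between groups are given with and without them.

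The members split between those oocytes and the others in 3 ways. At 12 weeks the oocytes with low Gdf9 had 4.01 to 69.0 CPM of Zar1, where the other 66 had 771 to 4023. Pabpn1l was at 7.21 to 41.0 against 369 to 1989 CPM, Lsm14b at 2.38 to 59.4 against 132 to 305, Cpeb1 at 11.9 to 101 against 189 to 564, and Dazl at 227 to 823 against 892 to 1926. Ybx2 lay the other way, at 7.31 to 49.5 CPM against 0.241 to 7.13. The ranges overlapped for Eif4e1b (294 to 676 against 61.6 to 510 CPM), Cnot6l (218 to 547 against 124 to 426), Btg4 (4221 to 19462 against 5298 to 8419) and Cnot7 (1302 to 4970 against 1507 to 4478). Mos, a known CPEB1 target that encodes the meiotic kinase of the egg, was at 1.60 to 20.6 CPM in these oocytes and at 520 to 2107 in the others. The 2 oocytes at 39 weeks had 1.42 and 17.6 CPM of Zar1 and 55.5 and 63.9 of Pabpn1l, where the other 17 had 718 to 4820 and 2209 to 8921. The scatter of the members against Gdf9 shows the separate cloud. What these oocytes are was not tested.

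**Figure D2:**
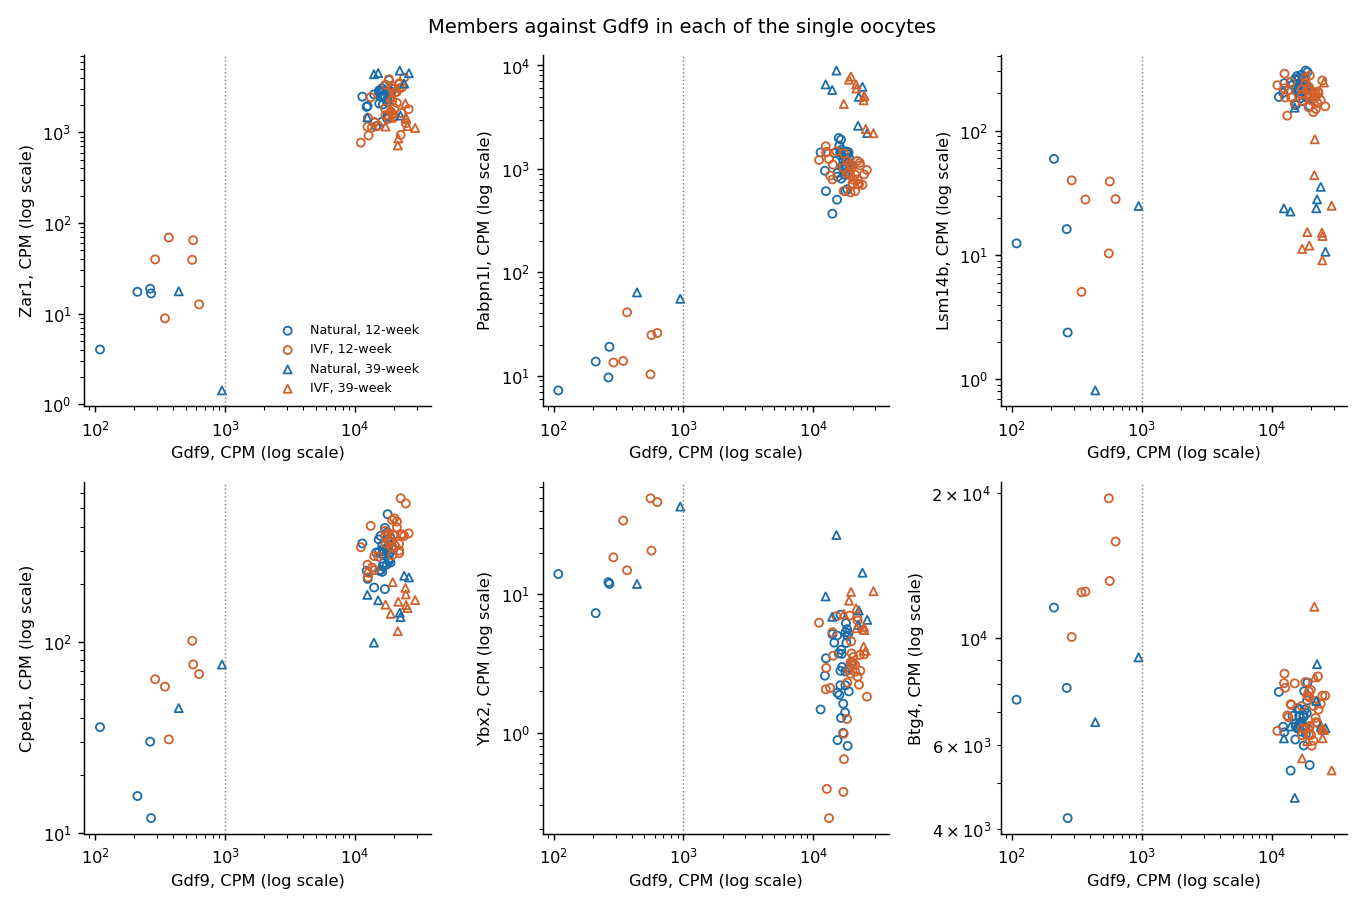
CPM of 6 members (vertical) against CPM of Gdf9 (horizontal) in each of the 95 single oocytes, both on log axes (circles 12 weeks, triangles 39 weeks, blue Natural, orange IVF, dotted line 1000 CPM). There are 12 oocytes left of the line, with Zar1 at 1.42 to 69.0 CPM where the others have 718 or more.

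In 12-week oocytes no member passed the test between 5 Natural and 5 IVF sets. Of 14444 genes tested with edgeR, 0.0277% were called, and 0 of the 10 members were. At an unadjusted edgeR p below 0.05 there was 1 member, Cnot7, and 963 of the 14444 genes. DESeq2 called 0 members as well. The median log2 fold change was -0.19 over the members and 0.02 over all genes tested. Without the 10 oocytes of low Gdf9, the count stayed at 0 with both tools. It was also 0 of 10 in edgeR when counts were summed per first name field instead of per set.

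Cnot7, the catalytic deadenylase subunit, came nearest. The Natural sets 1 to 5 had 3316, 2496, 2589, 2210 and 2504 CPM of Cnot7, and the IVF sets 2231, 2000, 1822, 2057 and 1860. The ranges overlapped only where the highest IVF set (2231) passed the lowest Natural set (2210). The log2 fold change was -0.40 (SE 0.13, edgeR adjusted p = 0.699, DESeq2 adjusted p = 0.364), and -0.34 without the oocytes of low Gdf9 (edgeR adjusted p = 0.603). Its partner Cnot6l spanned 170 to 236 CPM in Natural sets and 170 to 211 in IVF sets (log2 fold change -0.14, SE 0.12, and -0.07 without those oocytes).

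Zar1, the storage factor, had 2823, 2372, 1481, 2597 and 2361 CPM in the Natural sets and 1097, 1684, 1721, 1285 and 3431 CPM in the IVF sets. IVF set 5 was the highest of all 10 sets, while the other 4 IVF sets lay within or below the Natural range. The log2 fold change was -0.34 (SE 0.28, edgeR adjusted p = 0.887), and -0.22 without the oocytes of low Gdf9. Oocytes of one set were alike: among oocytes with high Gdf9, IVF set 1 had 771 to 1450 CPM and IVF set 5 had 2781 to 4023, with no oocyte of one inside the range of the other. Natural set 3 likewise lay at 1171 to 1515 CPM, below the 1915 to 3776 of the other Natural sets. Differences between sets of the same group made up 82.9% of the within-group variation (sum of squares of log2 CPM) of Zar1 in these 66 oocytes, a share higher than that of 98.8% of 5833 genes. With all 76 oocytes that share was 17.3%.

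The same share was 62.2% for Pabpn1l, 56.7% for Eif4e1b, 55.2% for Dazl and 45.9% for Cpeb1, against a median of 28.9% over the 5833 genes. Ybx2, itself below 10 CPM on average, was at 37.0%, Lsm14b at 26.4%, Btg4 at 25.9%, Cnot6l at 24.6% and Cnot7 at 21.5%. With all 76 oocytes the shares were 40.5% for Dazl, 38.6% for Eif4e1b, 20.0% for Cnot7, 19.9% for Pabpn1l, 19.6% for Btg4, 19.0% for Lsm14b, 18.0% for Ybx2, 14.5% for Cpeb1 and 8.83% for Cnot6l, against a median of 19.5%, so the order of the members depends on the oocytes of low Gdf9. The shares do not separate sets with the same first name field from sets with different ones. Set and day or batch of collection cannot be told apart.

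Pabpn1l had 1214, 1130, 1204, 1477 and 566 CPM in the Natural sets and 1204, 795, 656, 823 and 947 CPM in the IVF sets. Natural set 5 was the lowest of the 10 sets, and the other 4 Natural sets lay above IVF sets 2 to 5 (log2 fold change -0.34, SE 0.23, and -0.25 without the oocytes of low Gdf9). Eif4e1b spanned 192 to 336 CPM in Natural and 111 to 291 in IVF sets (-0.24, SE 0.24, and -0.27 without them), and Lsm14b 168 to 260 and 112 to 219 (-0.31, SE 0.18, and -0.25). Dazl ranged from 998 to 1567 CPM in Natural sets and from 694 to 1675 in IVF sets (-0.09, SE 0.21, and -0.04). Cpeb1 ranged from 239 to 349 and from 226 to 402 CPM (0.10, SE 0.17, and 0.19). Btg4, the most abundant member, was also the most even, at 6354 to 7518 CPM in Natural sets and 6594 to 8139 in IVF sets (0.02, SE 0.10, and 0.01). Ybx2 was near the floor of these libraries, at 2.03 to 5.14 CPM in Natural sets and 2.24 to 7.14 in IVF sets, and its log2 fold change turned from 0.29 (SE 0.33) to -0.14 without the oocytes of low Gdf9.

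**Figure D3:**
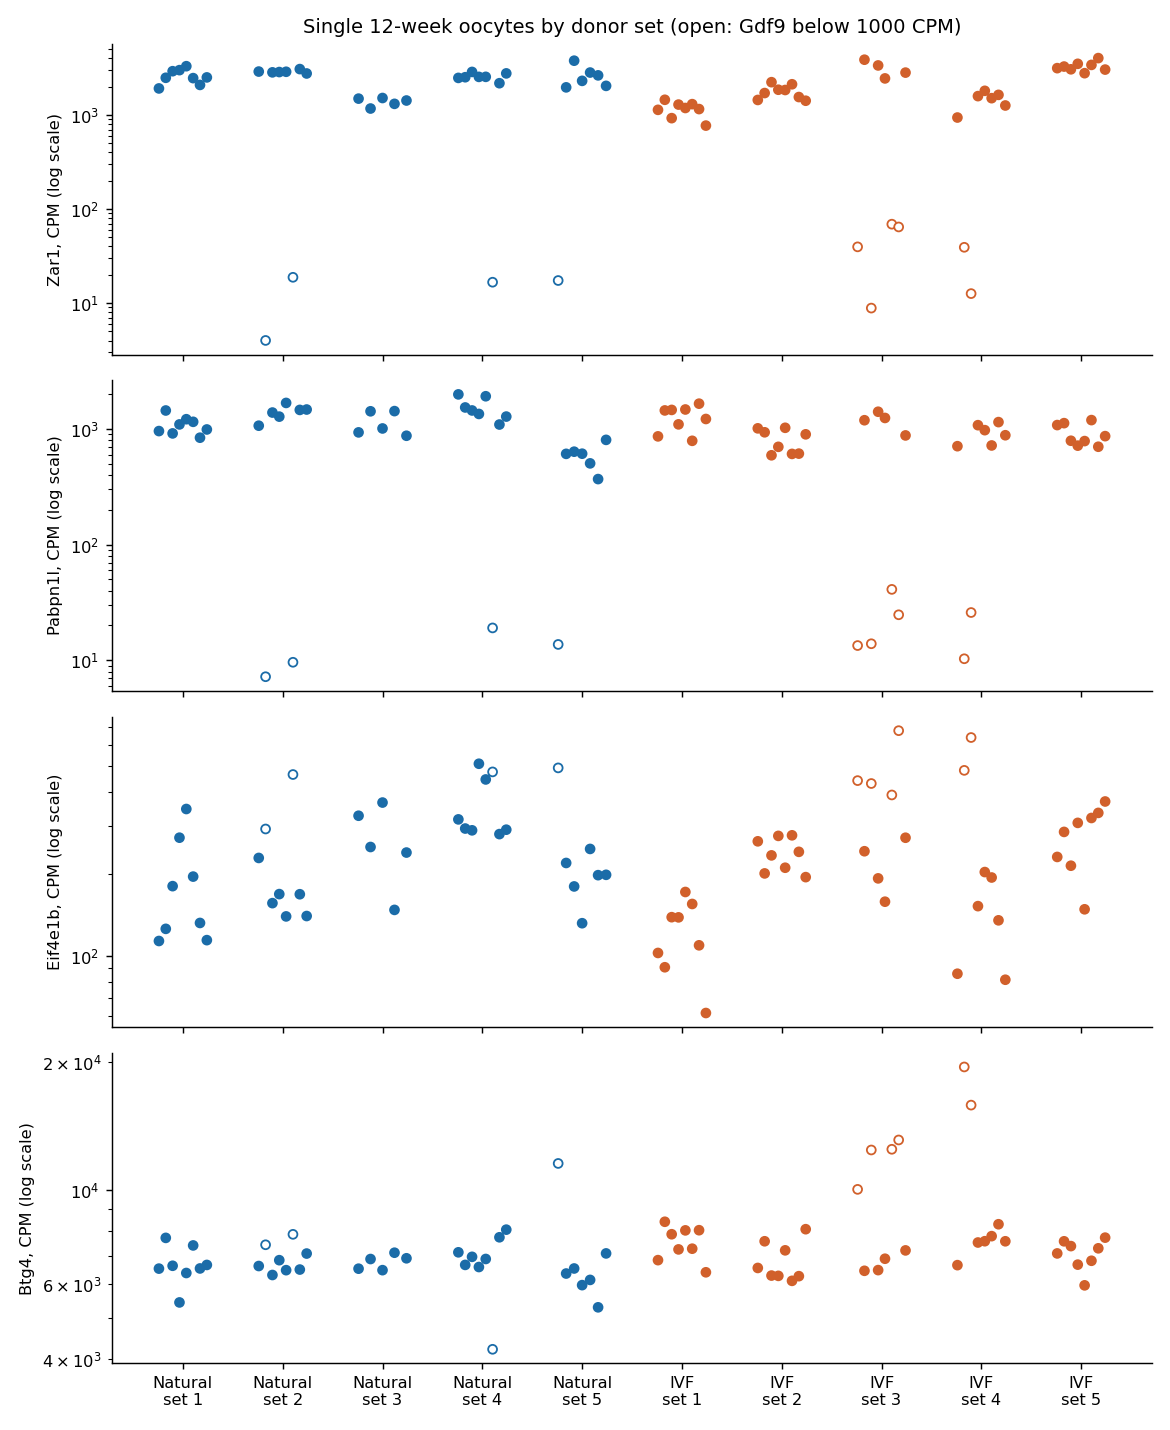
CPM on a log axis of Zar1, Pabpn1l, Eif4e1b and Btg4 in single 12-week oocytes, by donor set (filled: Gdf9 at or above 1000 CPM; open: below; blue Natural, orange IVF). Zar1 separates IVF set 1 (771 to 1450 CPM) from IVF set 5 (2781 to 4023 CPM), and the open points fall to 4.01 to 69.0 CPM for Zar1 but lie at 294 to 676 CPM for Eif4e1b.

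Within sets, and among the 66 oocytes of high Gdf9, Cnot6l and Cnot7 varied together (r = 0.56), as did Zar1 and Eif4e1b (0.50). Zar1 ran against Cnot7 (r = -0.53). Btg4 went with Pabpn1l (0.41) and Dazl (0.37). These values describe oocytes that share a set but differ in total counts, and carry no test.

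In 39-week oocytes, 3 of the 10 members differed by more than 1.5-fold between the summed counts of the groups, where 52.6% of 12319 genes with at least 1 CPM in a group did. Zar1 was at 2544 CPM in Natural (95% Poisson interval 2534 to 2553) and at 1396 in IVF (1391 to 1402), 1.82-fold higher in Natural. The intervals cover counting error only, with 1 sample a group and no replicate check. They treat each count as independent, while 70.8% of the counts from 1 to 20 in these oocytes were even, so they may be too narrow. Zar1 in the 9 Natural oocytes was 1535, 4820, 4390, 4523, 3463, 17.6, 4510, 1466 and 1.42 CPM, with the values of 17.6 and 1.42 in the oocytes of low Gdf9. In the 10 IVF oocytes Zar1 ran from 718 through a median of 1293 to 2448 CPM. All 10 IVF oocytes lay below the Natural median of 3463 CPM, but the Natural oocytes at 1466 and 1535 CPM lay inside the IVF range. Without the 2 oocytes of low Gdf9, Zar1 was 2.54-fold higher in Natural.

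Eif4e1b, the oocyte cap-binding factor, also lay lower in IVF, at 1424 CPM in Natural (1417 to 1431) and 966 in IVF (961 to 970), which is 1.47-fold. Its single-oocyte range was 897 to 1629 CPM in Natural (median 1432) and 465.8 to 1382 in IVF (median 1003), and all 10 IVF oocytes lay below the Natural median. The ratio was 1.46 without the oocytes of low Gdf9.

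The other members past 1.5-fold rested on those oocytes. Pabpn1l was at 3465 CPM in Natural and 5500 in IVF, 1.59-fold higher in IVF, and 1.14-fold without the 2 oocytes. Its medians were alike, 4965 and 5032 CPM. Ybx2 was at 15.5 and 7.26 CPM, 2.13-fold higher in Natural and 1.30-fold without them. The 4 highest Natural oocytes, at 11.9 to 43.1 CPM and including both of low Gdf9, lay above the IVF maximum of 10.54.

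The deadenylation factors differed little. Btg4 was at 7347 CPM in Natural and 7068 in IVF, Cnot7 at 967 and 1016, and Cnot6l at 118 and 107. Dazl stood at 722 and 707 CPM and Cpeb1 at 130 and 164. Lsm14b was at 28.8 and 33.4 CPM with a long upper tail. Natural oocyte 4 had 153 CPM where the others had 0.815 to 35.4, and IVF oocyte 7 had 245 where the others had 9.06 to 85.4. Both had the lowest total and the most genes detected of their group. Oocyte 4 had 5959480 counts and 18228 genes (at most 15298 genes in the other Natural oocytes). Oocyte 7 had 2820748 counts and 23116 genes (at most 14842 in the other IVF oocytes). Without the 2 oocytes of low Gdf9 the ratio of IVF to Natural was 1.00 for Btg4 (0.962 with them), 1.05 for Cnot7 (1.05), 0.858 for Cnot6l (0.908), 0.830 for Dazl (0.979), 1.05 for Cpeb1 (1.26) and 0.977 for Lsm14b (1.16). Haemoglobin and Alas2 transcripts, markers of red cells, summed to 115 to 18370 CPM in Natural and 2.34 to 27005 in IVF oocytes of this table, and their part in the CPM of the members was not tested.

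**Figure D4:**
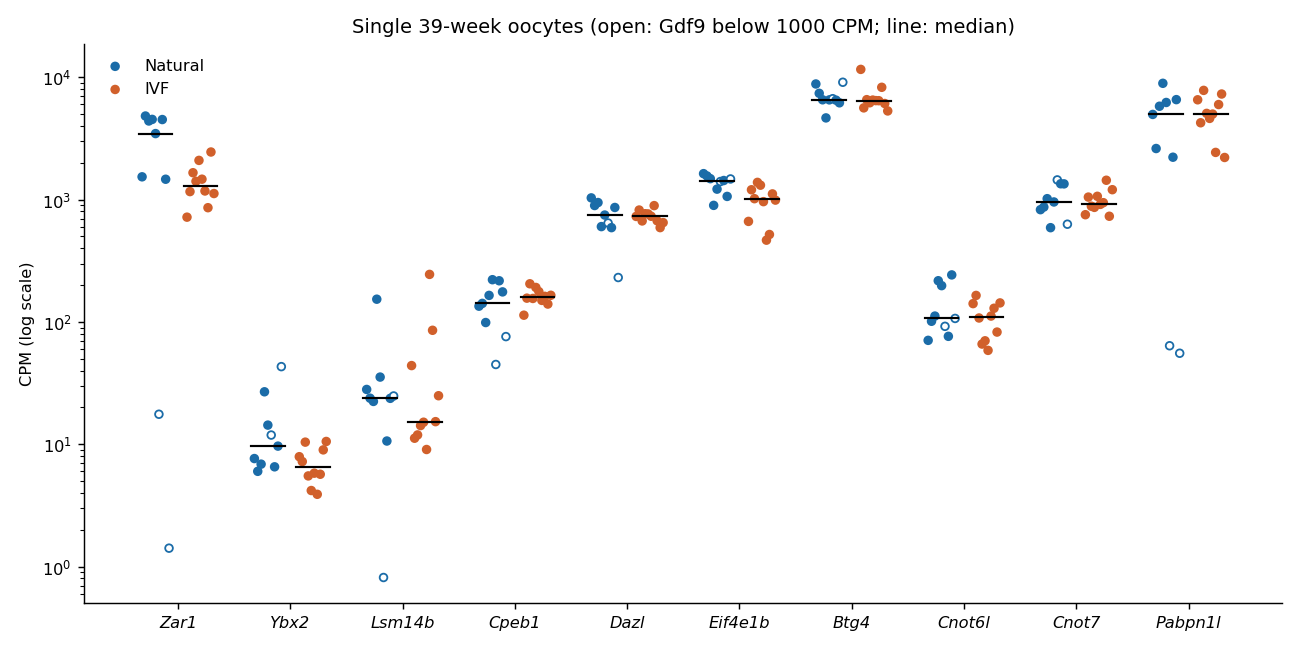
CPM on a log axis of each member in single 39-week oocytes (9 Natural, blue; 10 IVF, orange; open: Gdf9 below 1000 CPM; line: median). Zar1 has medians of 3463 CPM in Natural and 1293 in IVF, and Btg4, Dazl and Cnot7 have nearly level medians.

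Several members stood at different levels at the 2 ages, in tables that were made apart and so were not tested against each other. The median of single oocytes for Lsm14b was 216 CPM in Natural and 191 in IVF at 12 weeks, and 23.8 and 15.2 at 39 weeks. Pabpn1l lay the other way, at 1079 and 881 CPM at 12 weeks and 4965 and 5032 at 39 weeks. Eif4e1b had medians of 235 and 213 CPM at 12 weeks and 1432 and 1003 at 39 weeks. Cnot7 had medians of 2326 and 1941 CPM at 12 weeks and 956 and 929 at 39 weeks. Btg4 had 6649 and 7336 CPM at 12 weeks and 6541 and 6435 at 39 weeks. Age and library preparation cannot be told apart here.

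In E18.5 ovaries, where oocytes are entering primordial follicles, Btg4 was lower in IVF. The Natural ovaries had 12.4, 16.1, 7.38 and 29.9 CPM of Btg4, and the IVF ovaries 3.84, 0.0985, 1.66, 0.801, 3.93 and 2.80. Every IVF ovary lay below every Natural ovary. The groups did not overlap, in either direction, for 8.61% of the 16415 genes tested. Btg4 fell by 2.93 on the log2 scale (SE 0.57, edgeR adjusted p = 0.0158), and remained called when any one ovary was left out (adjusted p from 0.0108 to 0.0450). It was the one member called of the 8 that passed the expression filter, in a table where 5.43% of genes were called. The median log2 fold change was -0.15 over the 8 members and 0.00 over all genes, and the 8 do not include the lowest members, Eif4e1b and Pabpn1l.

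Zar1 had 1.498, 0.907, 0.798 and 6.49 CPM in the Natural and 0.501, 0, 0.166, 0.200, 1.12 and 0.430 CPM in the IVF ovaries, with overlap at the lower Natural values. Its log2 fold change was -2.67 (SE 0.76, edgeR adjusted p = 0.0584, DESeq2 adjusted p = 0.0134), and -1.47 without Natural ovary 4 (edgeR adjusted p = 0.278). Eif4e1b was at 0.832, 3.08, 0.898 and 3.25 CPM in Natural and at 0.668, 0, 0.0832, 0, 1.12 and 0 in IVF ovaries, below the filter of the edgeR test. Dazl lay the other way, at 36.6 to 75.6 CPM in Natural and 71.4 to 123 in IVF ovaries (log2 fold change 0.65, SE 0.23, edgeR adjusted p = 0.102, DESeq2 adjusted p = 0.0448). Lsm14b spanned 213 to 471 CPM in Natural and 145 to 300 in IVF (-0.46, SE 0.23), Ybx2 138 to 453 and 91.8 to 353, and Cpeb1 64.9 to 176 and 65.5 to 136. Cnot6l spanned 72.9 to 103 and 64.9 to 101 CPM and Cnot7 67.7 to 75.3 and 60.7 to 98.7. Pabpn1l had at most 0.299 CPM in any of these ovaries. DESeq2 called 1 of 9 members higher and 3 lower, where 888 and 968 of 17747 genes were. The lower ones included a member below the edgeR filter, Eif4e1b or Pabpn1l, and which of them is not given here.

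Oocyte markers moved with Btg4 and Zar1. All 10 tested of the 11 markers had log2 fold changes below 0, 5 of them were called lower in IVF, and their median was -1.98. Their summed level was 243 to 984 CPM in Natural and 47.3 to 309 CPM in IVF ovaries, and Oosp1 was at 0 in both. Germ cell markers had a median of 0.19 with 0 of 5 called, and 2 of 5 red cell markers were called higher. In bulk RNA of ovaries, fewer oocytes and less mRNA per oocyte cannot be told apart, and the part of the marker difference in the result for Btg4 was not tested. By staining whole E18.5 ovaries for a germ cell protein, the paper found germ cell numbers that did not differ between the groups. Scaled to the summed oocyte markers, which moved the median of all genes by 1.83 on the log2 scale, Btg4 was at -1.63 (edgeR adjusted p = 0.0661), and Dazl (2.44), Cnot6l (2.00) and Cnot7 (2.15) were called higher (each edgeR adjusted p = 0.0479), as were 7011 of the 16415 genes tested.

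In 12-week ovaries, 0 of the 10 members were called by edgeR or DESeq2, in a table where edgeR called 0.00567% of 17628 genes. None of the members had an unadjusted edgeR p below 0.05, while 2544 of those genes did. Of the 10 log2 fold changes, 9 were positive, from 0.05 for Cpeb1 to 0.52 for Dazl, and Lsm14b was at -0.07. The oocyte markers lay the same way, with 10 of 11 above 0 and a median of 0.47. Scaling to them moved the median of all genes to -0.52 on the log2 scale.

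In 39-week ovaries, Cpeb1 was lower in IVF. The Natural ovaries had 46.7, 30.7, 31.4, 31.0 and 36.3 CPM of Cpeb1 and the IVF ovaries 20.1, 18.4, 18.6, 21.7 and 19.11. The groups did not overlap, as in 5.11% of 17186 genes tested. Cpeb1 fell by 0.85 on the log2 scale (SE 0.13, edgeR adjusted p = 0.0326, DESeq2 adjusted p = 7.44e-06), the one member called where 0.262% of genes were. The call held in 1 of 10 fits that left out an ovary, without IVF ovary 1, and the adjusted p ran from 0.0297 to 0.0914 over the 10, with log2 fold changes of -0.90 to -0.73.

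The other 9 members were not called at 39 weeks. Btg4 had 5.24, 10.9, 6.50, 8.31 and 6.89 CPM in Natural and 22.6, 10.9, 6.71, 17.6 and 12.1 CPM in IVF ovaries (log2 fold change 0.88, SE 0.32, edgeR adjusted p = 0.189). Lsm14b was at 84.8 to 92.4 CPM in Natural and 91.3 to 118 in IVF ovaries (0.29, SE 0.08, edgeR adjusted p = 0.125). Eif4e1b (0.48), Pabpn1l (0.44), Dazl (0.37), Zar1 (0.35) and Cnot6l (0.14) had positive log2 fold changes, and Ybx2 (-0.57) and Cnot7 (-0.10) negative ones. Granulosa and cumulus markers summed to 704 to 1836 CPM in Natural and 1218 to 3818 in IVF. The median fold change of the 9 tested was 0.92 in log2 units, and 0 were called. Oocyte markers had a median of 0.18. Cpeb1 stood at -1.07 when scaled to the oocyte markers (edgeR adjusted p = 0.423), and the part of either cell type in its difference was not tested.

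**Figure D5:**
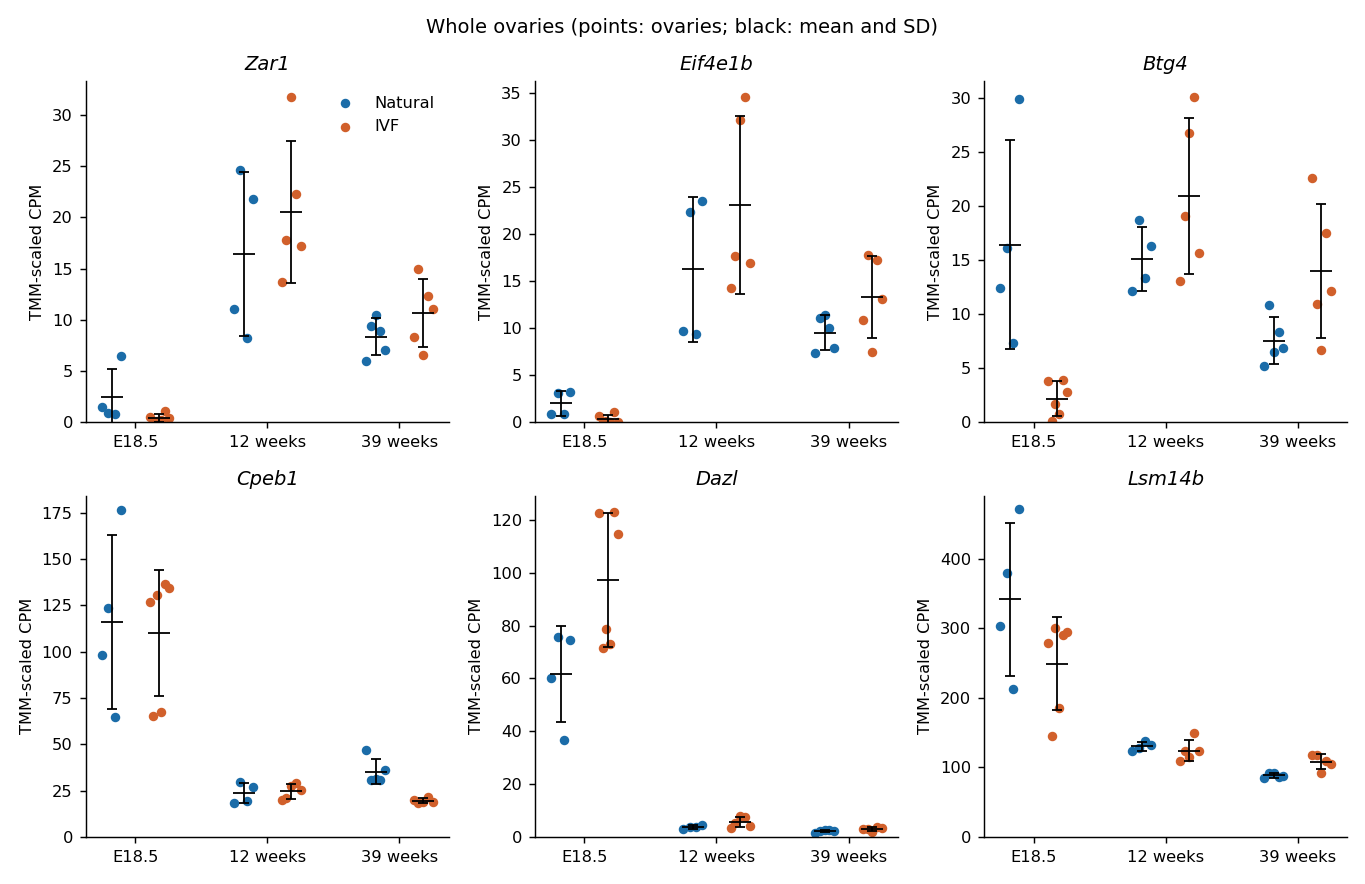
TMM-scaled CPM of 6 members in whole ovaries of the 3 ages (points: ovaries; black: mean and SD, with bars cut at the axis where they pass below 0; blue Natural, orange IVF). Btg4 at E18.5 (7.38 to 29.9 CPM in Natural, 0.0985 to 3.93 in IVF) and Cpeb1 at 39 weeks (30.7 to 46.7 and 18.4 to 21.7) do not overlap between groups.

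The difference between Natural and IVF changed with ovary age for 4 of the 10 members between E18.5 and 39 weeks. In 1 edgeR model of the 3 ages, the log2 fold change at 39 weeks exceeded that at E18.5 by 3.81 for Btg4 (SE 0.65, adjusted p = 0.000781), by 3.07 for Zar1 (SE 0.75, adjusted p = 0.0133), by 3.28 for Eif4e1b (SE 0.82, adjusted p = 0.0145) and by 0.76 for Lsm14b (SE 0.24, adjusted p = 0.0484). These 4 of 10 members stood where 7.95% of 19724 genes were called. The call for Lsm14b held in 8 of 29 fits that left out an ovary, that for Zar1 in 28, and those for Btg4 and Eif4e1b in 29. Without Natural ovary 4 of E18.5, Zar1 was at 1.93 (adjusted p = 0.0835). Between 12 weeks and E18.5 Btg4 was the one member called (3.40, SE 0.68, edgeR adjusted p = 0.0390, 0.314% of genes called), and its call held in 21 of 29 such fits. Between 39 and 12 weeks 0 members were called by edgeR, where 2.71% of genes were, and 0 by DESeq2. At an unadjusted edgeR p below 0.05 there were 1 member, Cpeb1 (-0.90, SE 0.32, edgeR adjusted p = 0.108), and 3947 of 19724 genes. The contrasts share ovaries, and the E18.5 values rest on few reads for Zar1 and Eif4e1b.

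In PGCs, 0 of the 6 members tested were called by edgeR or DESeq2, and the share of genes called was 0% of 12763. An unadjusted edgeR p below 0.05 was found for 0 members and for 349 of those genes. Dazl had 4449, 1909, 1460 and 1127 CPM in the Natural and 3434, 2225, 2795, 3136 and 2727 CPM in the IVF libraries (log2 fold change 0.36, SE 0.43). Its Natural values spread wider than the IVF values and enclosed them. Cpeb1 was at 134 to 279 and 215 to 304 CPM (0.39, SE 0.25). Ybx2 was at 14.8 to 109 CPM in Natural and 16.5 to 74.2 in IVF libraries. Lsm14b stayed under 21.8 CPM, Cnot6l lay at 11.7 to 53.3 and Cnot7 at 125 to 211. Btg4 was at 0 in 8 of the 9 libraries.

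In cumulus cells, the somatic cells around the egg, the members served as a check for oocyte RNA. The 4 libraries of one naming scheme had 0 counts of Btg4, Dazl, Pabpn1l and Ybx2, and an oocyte marker sum of 0.788 to 1.13 CPM. Those 4 libraries did have 0.325 to 3.87 CPM of Lsm14b and up to 1.30 of Cpeb1, and Zar1 and Eif4e1b were above 0 in 1 each. The 6 libraries of the other scheme had 4.54 to 11.0 CPM of Btg4 and 0.704 to 2.74 of Dazl, with oocyte markers at 15.6 to 41.1 CPM. Ybx2 was at 0 in 4 of these 6 as well. The scheme was a covariate of the fit, and both schemes occur in both groups. Of the members 3 were tested and 0 called by edgeR or DESeq2, where 0.00973% of 10280 genes were called. Cnot7, the one member at an unadjusted p below 0.05, had 162, 118, 180, 152 and 164 CPM in Natural and 126, 133, 142, 113 and 86.0 CPM in IVF libraries (log2 fold change -0.38, SE 0.16, edgeR adjusted p = 0.723). Cnot6l was at 6.52 to 12.1 and 9.99 to 19.7 CPM (0.53, SE 0.26). Lsm14b lay under the filter, at 1.45 to 3.87 CPM in Natural and 0.325 to 1.38 in IVF libraries, without overlap, as in 0.759% of the 10280 genes that passed the filter. Natural library 5 has a library name like that of an IVF oocyte set and was kept as titled. Without it the Natural range of Lsm14b stayed at 1.45 to 3.87 CPM, and the log2 fold change of Cnot7 was -0.39 (edgeR adjusted p = 0.836).

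Further genes of storage, polyadenylation, deadenylation and decay were described from lists, which were chosen with earlier results of these data known. In 12-week oocytes 0 of 26 tested storage genes, 0 of 16 polyadenylation genes, 0 of 21 deadenylation genes, 0 of 32 decapping, exonuclease and m6A genes and 0 of 5 known CPEB1 or DAZL targets were called, with list medians between -0.09 and 0.10 against 0.02 for all genes. The values nearest to a call were those of the poly(A)-binding protein partners Paip2 (log2 fold change 1.10, SE 0.35) and Paip1 (-0.74, SE 0.23) and of Ythdf3 (-0.38, SE 0.13). Each was at an edgeR adjusted p of 0.699. Values without the oocytes of low Gdf9 are not given for the list genes at 12 weeks. Zar1l, the paralogue of Zar1, was at 0.42 (SE 0.18, edgeR adjusted p = 0.745).

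In E18.5 ovaries, the 5'-3' exonuclease gene Xrn1 rose by 0.59 (SE 0.13, edgeR adjusted p = 0.0231) and Cpeb4 by 0.81 (SE 0.19, edgeR adjusted p = 0.0286) on the log2 scale. These were 1 of 32 decay genes and 1 of 25 storage genes, and 0 of 22 deadenylation and 0 of 16 polyadenylation genes were called, in a table where 5.43% of all genes were. The calls held in 7 and 2 of the 10 fits that left out an ovary. In 39-week ovaries, 1 of 26 storage genes was called (0.262% of all genes), the Y-box gene Ybx3, which rose by 0.61 (SE 0.08, edgeR adjusted p = 0.0187, called in 5 of 10 such fits). The IVF effect on Ybx3 also differed between 39 weeks and E18.5 (0.91, SE 0.10, edgeR adjusted p = 2.85e-05) and between 39 and 12 weeks (0.64, SE 0.11, edgeR adjusted p = 0.00785). Of the decay genes, Xrn1 (-0.60, adjusted p = 0.0185), Edc3 (0.44, adjusted p = 0.0296), Exosc4 (0.54, adjusted p = 0.0275) and Exosc2 (0.45, adjusted p = 0.0408) differed in edgeR between 39 weeks and E18.5, 4 of 32. Of the storage genes Nanos2 (5.18, adjusted p = 0.0351) and Cpeb2 (-1.05, adjusted p = 0.0477) did so too, with Ybx3 3 of 27, where 7.95% of all genes were called. The calls held in 8 of 29 fits that left out an ovary for Cpeb2, 18 for Exosc2, 24 for Nanos2, 25 for Edc3, 26 for Exosc4, 28 for Xrn1 and 29 for Ybx3. No gene of deadenylation (0 of 22) or polyadenylation (0 of 16) was called in that edgeR contrast. No list gene was called in 12-week ovaries, PGCs or cumulus cells by edgeR.

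In 39-week oocytes, 2 of 25 counted storage genes were higher in IVF by more than 1.5-fold and 5 lower, 4 of 15 polyadenylation genes higher and 3 lower, 3 of 18 deadenylation genes higher and 4 lower, and 6 of 32 decay genes higher and 4 lower. These shares stand beside the 52.6% of all genes and carry no test. Dcp2, the decapping enzyme gene, was at 201 CPM in Natural and 86.0 in IVF, 2.34-fold higher in Natural, Lsm6 was at 23.2 and 5.94 CPM, 3.90-fold, and Pabpn1, the nuclear poly(A)-binding protein gene, at 39.5 and 14.2 CPM, 2.79-fold. Without the 2 oocytes of low Gdf9 these ratios were 0.925, 1.13 and 1.15. Of the deadenylation genes, Samd4b was at 20.0 and 5.96 CPM, 3.36-fold higher in Natural and 1.77-fold without those oocytes. Parn was at 17.1 and 8.28 CPM, 2.06-fold higher in Natural and 1.52-fold without those oocytes. Exosc9, a subunit of the exosome, was at 9.86 and 21.6 CPM, 2.20-fold higher in IVF and 1.87-fold without those oocytes. Of the CPEB1 or DAZL targets, Plat (3102 and 5423 CPM) and Tpx2 (110 and 190 CPM) were 1.75-fold and 1.73-fold higher in IVF, and 1.25-fold and 1.69-fold without them. Plat was also low in the 2 Natural oocytes of low Gdf9, at 8.47 and 39.0 CPM against 2326 to 6538 CPM in the other 17.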

How the data were processed

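The deposited tables hold whole-number read counts per gene. Per the submitters' processing notes, the authors used Trimmomatic 0.32, STAR 2.3.0e on mm10 and featureCounts 1.5.0 to trim, align and count reads. The methods name Trim Galore for the low-input libraries. Strand setting is not given in the sources used here. Of the counts from 1 to 20, 66.7% to 79.1% were even. Samples with conflicting labels were kept as titled. Columns of other studies numbered 0.

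Counts were tested with edgeR 4.0.16 (TMM, filterByExpr, quasi-likelihood, two-sided, Benjamini-Hochberg) in R 4.3.3, with DESeq2 1.42.0 and limma 3.58.1 as alternatives, and checked on simulated data. Oocytes at 12 weeks were summed per set, read from the library names. In 39-week oocytes ratios of summed CPM used genes at 1 CPM or more. Poisson intervals and low counts cover counting error only. Motifs and transcript ends came from GENCODE vM21, and the log2(CPM + 1) profiles used a pseudocount of 1. All members were named, with called genes of each list (at most the 3 largest a direction), or the 2 of smallest adjusted p, of which some are printed. Members and lists were chosen with earlier results of these data known. Some member sequences are not reported here.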

Additional observations from a re-analysis of the deposited data

Results flagged for a closer look

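Of 119 groups of 4 to 10 values of the members, 9 held a value set off from the rest of its group by a wide gap, and chance alone flags a small share of such groups. In PGCs, Natural library 2 had 109 CPM of Ybx2 where the other 3 had 14.8 to 18.46. In E18.5 ovaries, Natural ovary 4 had 6.49 CPM of Zar1, against 0.798 to 1.498 in the others. For Cnot7, Natural ovary 4 at 12 weeks had 127 CPM (others 101 to 103), and IVF ovary 1 at 39 weeks had 60.2 CPM (others 105 to 118).

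In 12-week oocytes, IVF set 5 had 3431 CPM of Zar1, where the other IVF sets had 1097 to 1721, and Natural set 5 had 6354 CPM of Btg4, against 7264 to 7518. In 39-week oocytes, Natural oocyte 4 had 153 CPM of Lsm14b (others 0.815 to 35.4), IVF oocyte 7 had 245 CPM (others 9.06 to 85.4), and IVF oocyte 1 had 11591 CPM of Btg4 (others 5303 to 8274). Natural oocyte 4 and IVF oocyte 7 had the lowest total and the most genes detected of their groups.

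The effect of IVF differed between ovary ages in the edgeR model for 4 members. On the log2 scale the effect at 39 weeks minus that at E18.5 was 3.81 for Btg4, 3.28 for Eif4e1b, 3.07 for Zar1 and 0.76 for Lsm14b, and at 12 weeks minus E18.5 it was 3.40 for Btg4. The median log2 fold change of the oocyte markers was -1.98 in fetal ovaries, 0.47 in 12-week ovaries and 0.18 in 39-week ovaries, and their part in these differences was not tested.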

How the results depend on the processing

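In E18.5 ovaries 1 member was called, against 4 by DESeq2 (888 and 968 of 17747 genes called higher and lower) and 2 with no expression filter (363 and 451 of 27890). The count was 0 with the replicate block and 3 with libraries scaled to the oocyte markers (where 7011 of 16415 genes were called higher). When an ovary was left out it was 1 to 3 (3 without Natural replicate 1, where 1056 and 917 of 16816 genes were called). In 39-week ovaries the 1 call became 0 with the replicate block, 0 with marker scaling, and 0 to 1 when an ovary was left out (1 without IVF replicate 1). For the IVF effect between 39 weeks and E18.5 the 4 calls became 1 where every ovary needed 10 counts (6 members tested, 956 and 644 of 12330 genes called higher and lower). They became 2 to 5 when an ovary was left out. The 2 were without E18.5 Natural replicate 4 (808 and 338 of 20238 genes), the 5 without E18.5 Natural replicate 1 (1040 and 824 of 20319). In 39-week oocytes the 3 members past 1.5-fold became 7 with marker scaling, 1 without the oocytes of low Gdf9, and 2 by means, medians or TMM, where Zar1 stayed lower in IVF in all 5 alternatives. The share of all genes past 1.5-fold in these alternatives is not given here, so the counts have no background to stand beside. No call among the 10 members was made in 12-week oocytes or 12-week ovaries in any alternative. The causes were not tested.

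In no table did every pair of equal number have a correlation of deviations over 0.1 (r from -0.43 to 0.59, and from 0.02 to 0.40 in 39-week ovaries, 3 of 5 over 0.1), so the numbers are taken as names. With the replicate block Btg4 at E18.5 was at -3.49 (edgeR adjusted p = 0.190) and Cpeb1 at 39 weeks at -0.83 (0.0599). Over all genes, the block left 2 higher and 1 lower calls at E18.5 (439 and 452 without it), 7 and 17 in 39-week ovaries (10 and 35), 11 and 13 in cumulus cells (0 and 1). DESeq2 called 888 and 968 at E18.5, 158 and 487 in 12-week ovaries, 500 and 589 in 39-week ovaries, 35 and 20 in 12-week oocytes and 14 and 13 in cumulus cells.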
